A study of Mus musculus with 4 samples.

Results

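The broad Zeb1 peaks were chosen by their length alone, as the peaks that spanned 4 kb or more from first to last base. They were 878 of the 17435 regions in the list, and each is a union of overlapping peaks from at least 2 of the 3 Zeb1 libraries, so that its length is that of the joined region. Zeb1 was mapped by chromatin immunoprecipitation and sequencing (ChIP-seq) in mES-D3, a feeder-free mouse embryonic stem cell (mESC) line from ATCC. Cells were kept in ground state medium (GS) with 1 µM PD0325901, an inhibitor of the MAPK/ERK kinase Mek, 3 µM CHIR99021, an inhibitor of the kinase Gsk3, and 20 ng/mL leukemia inhibitory factor (LIF). The 3 Zeb1 libraries were made from chromatin fixed with 1% formaldehyde, sheared to about 200 bp and precipitated with 8 µg of the anti-Zeb1 antibody H-102. The 1 input library came from the same kind of cells without antibody. The minimum per library was 20 M raw reads. The peak list gives a single mean per peak and none per library, so no spread between replicates could be given, and it holds no depth per library, although the authors drew an equal number of reads from each. The intervals below therefore cover counting error over peaks or motif matches only.

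Zeb1 is a zinc finger and homeodomain protein that binds E-box sequences with the core CACCTG and represses many of its targets, epithelial genes among them, by way of corepressors. CpG islands, stretches of DNA rich in CpG that mostly escape methylation, mark the promoters of most housekeeping genes and of many developmental regulators. The Zeb1 motif read on the opposite strand begins with CAGGT, which is also the sequence across the boundary of many exons with the intron that follows, so that exon-rich DNA holds matches of the motif at splice donors.

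The sequences of 5 motif matches are shown because the matches in broad peaks fell on different kinds of DNA. Each is the 61 bp around the match to [CT]N[CT]ACCTG nearest to the centre of a named peak, read from GRCm38 (mm10), and capitals mark the 8 bp match. In Zbtb7a, a zinc finger repressor, the window chr10:81145188-81145248 on the minus strand, opposite to the gene, ran as printed from an intron into a coding exon, and the match lay on the splice donor. The same held in Itpr3, a calcium channel of the endoplasmic reticulum, at chr17:27116268-27116328 on the minus strand. It also held in Cilp2, a cartilage matrix protein, at chr8:69885357-69885417 on the plus strand. The match in Cep131, a centrosomal protein, lay inside an intron at chr11:120069900-120069960 on the minus strand, 19 bp from the peak centre. In Plec, which encodes the cytoskeletal linker plectin, it lay inside a coding exon at chr15:76177192-76177252 on the minus strand.
Zbtb7a: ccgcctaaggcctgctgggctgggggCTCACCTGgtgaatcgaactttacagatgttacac
Itpr3: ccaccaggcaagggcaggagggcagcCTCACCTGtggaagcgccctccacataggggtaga
Cilp2: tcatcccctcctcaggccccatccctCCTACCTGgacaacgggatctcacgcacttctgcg
Cep131: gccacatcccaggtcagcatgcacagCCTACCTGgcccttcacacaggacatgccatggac
Plec: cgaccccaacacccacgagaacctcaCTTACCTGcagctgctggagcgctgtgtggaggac

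A further 2 windows show the CpG-rich DNA inside broad peaks, since most of these peaks held an island. They are the 200 bp with the most CpG in each of 2 of the longest promoter peaks of the authors' annotation, on the plus strand of GRCm38 (mm10), and capitals mark each CpG. The window with 29 CpG in Midn, the gene of midnolin, was chr10:80148687-80148886 in an intron. The window with 22 CpG in Aatk, a kinase gene, was chr11:120012106-120012305 and lay wholly in coding sequence. The Aatk peak was a promoter peak by way of a microRNA inside the gene, Mir3065.
Midn: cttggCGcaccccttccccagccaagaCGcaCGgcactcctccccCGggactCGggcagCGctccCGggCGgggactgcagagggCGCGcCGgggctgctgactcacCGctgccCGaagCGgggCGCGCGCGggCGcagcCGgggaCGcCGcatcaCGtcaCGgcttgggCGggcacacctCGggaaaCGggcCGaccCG
Aatk: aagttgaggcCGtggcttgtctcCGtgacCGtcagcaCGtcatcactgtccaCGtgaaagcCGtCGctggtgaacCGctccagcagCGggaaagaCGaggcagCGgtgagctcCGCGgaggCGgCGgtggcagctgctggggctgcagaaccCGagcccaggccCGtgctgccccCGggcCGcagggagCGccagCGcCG

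The broad peaks had a median length of 4850 bp (quartiles 4350 and 5800 bp), and most of them were close to the limit. There were 475 of 4 to 5 kb, 206 of 5 to 6 kb, 140 of 6 to 8 kb and 57 of 8 kb or more. Together they covered 12.8% of the bases under all peaks. Just inside the limit, the 27 peaks of exactly 4000 bp had a median of 89.7 treatment reads and a median enrichment over input of 6.97, with 81.5% of centres within 5 kb of a transcription start site (TSS). Just outside it, the 32 peaks of 3950 bp had medians of 97.4 reads and 8.86, with 53.1% within 5 kb. The peak with the highest enrichment inside was in Shroom3, an actin-binding protein gene, at chr5:92939551-92943550 (13.48), and the one outside was listed under Mir7054, over Scaf1, at chr7:45005001-45008950 (17.38). The limit thus divides a continuous range of lengths and no gap in the values marks it.

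**Figure D1:**
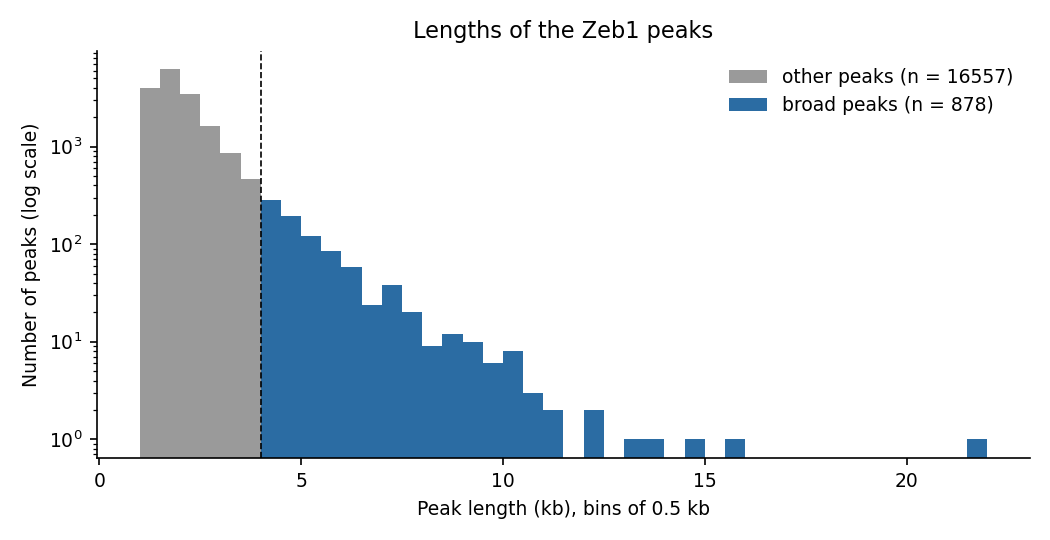
Number of Zeb1 peaks (log scale) by length in bins of 0.5 kb, with peaks of 4 kb or more in blue and a dashed line at the limit. The 878 broad peaks form the tail of a continuous distribution, and the longest spans 21900 bp.

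Reads and enrichment come from the same contrast that set the length, so they are given as a description only. The median was 104 treatment reads, from 24.25 to 4825, and 28.5 input reads, beside 46.0 and 15.5 in the other 16557 peaks. Median enrichment was 7.40 (quartiles 5.90 and 8.96), from 2.05 to 16.8, beside 6.45. Enrichment was at least 10 in 135 of 878 broad peaks (15.4%), and the same limit was passed by 14.7% of all 17435 peaks. As a description, the Spearman correlation of length with enrichment was 0.02 across the 878 broad peaks and 0.22 across all 17435. That of enrichment with GC content was 0.58 and 0.35. All peaks share the same libraries, and the length limit narrows the range among the broad ones.

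The longest peak covered all 15387 bp of Zbtb7a and reached into the downstream end of Pias4, a SUMO ligase gene. It lay at chr10:81133701-81155600, spanned 21900 bp with 7 CpG islands, and had 340 treatment reads over 79.1 input reads and an enrichment of 7.78. The next, at chr8:71368501-71384150 (15650 bp, enrichment 5.47), held both Ocel1 and Nr2f6, an orphan nuclear receptor gene, whole. Both of these regions held a whole gene. The third, chr17:27109551-27124400, lay over 26 exons of Itpr3 and Uqcc2, held no CpG island and had an enrichment of 9.16. In Plec the fourth, chr15:76170651-76184400, was 84.2% exon, held 8 islands and had 477 reads and an enrichment of 11.4. Island-free gene interiors and island-rich exons were both found among the longest peaks.

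Also among the 10 longest, Jag2, a Notch ligand gene, carried 12200 bp with an enrichment of 12.7 across 21 exons. Cep131 had 12100 bp, an enrichment of 6.41 and 0 islands. The Jag2 and Cep131 peaks held no TSS. Further ones lay over Midn (11400 bp, enrichment 8.24), Flnc, which encodes an actin crosslinker of muscle (11100 bp, 3.75, 0 islands), and Aatk (10850 bp, 7.95). The authors' nearest gene often differed from the gene underneath: the Flnc peak was listed under Atp6v1f and the Itpr3 peak under Uqcc2. Among broad peaks the listed gene was the one that covered most of the peak in 61.8%, beside 61.5% of the other peaks, and this share was 36.8% at 8 kb or more.

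**Figure D2:**
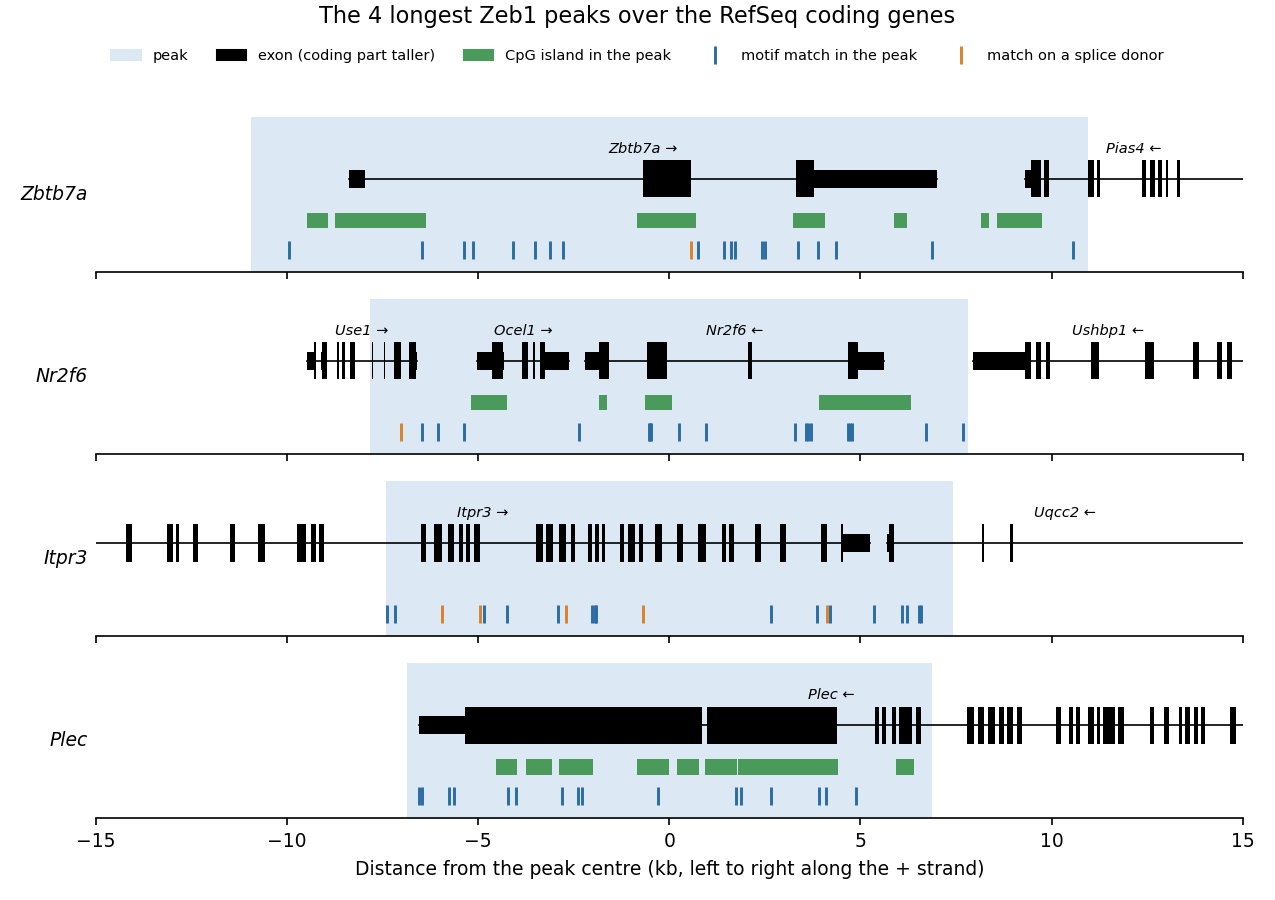
Maps of the 4 longest broad peaks (shaded) in GRCm38 by distance from the peak centre in kb, with exons in black, CpG islands in green, and motif matches as ticks, in orange on splice donors. The Zbtb7a peak of 21900 bp covers the whole gene, and the Itpr3 peak has 0 islands.

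The 5 broad peaks with the highest enrichment were mostly made of exon, with Elfn1 as the exception. Apc2, a relative of the beta-catenin regulator Apc, had an enrichment of 16.8 at chr10:80310101-80317250, with 286 reads over 30.1 and 87.0% of the peak in exon. Elfn1, a synaptic adhesion protein gene, had 16.8, Zfp503, a zinc finger gene, 16.5, Bcl9l, a beta-catenin coactivator gene, 16.4, and Lingo3, a leucine-rich membrane protein gene, 15.8. In 4 of them no TSS lay inside the peak, and the Zfp503 peak at chr14:21984401-21988900 held 0 matches of the motif. The motif was thus missing from 1 of the 5.

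The peaks with the most reads included satellite regions as well as peaks over genes. A satellite region at chr14:19415051-19420300, listed under Gm5458, had 4825 treatment reads over 4424 input reads and an enrichment of 2.65. Another satellite region, at chr11:3099801-3105350, had 630 reads over 475 and an enrichment of 2.93. Both had far more input reads than the median broad peak. They were followed by Plec, Cilp2 (433 reads, enrichment 8.23) and Map1s, a microtubule-associated protein gene (362 reads, 10.4). Enrichment under 3 was found in 15 broad peaks (1.71%, beside 4.95% of the other peaks), of which 9 were centred on a repeat and 8 overlapped no coding gene. Repeats were otherwise rare under the centres of broad peaks, at 6.04% beside 18.8%, and LINE repeats lay under 8 of 878.

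Broad peaks mostly lay over genes. A broad peak overlapped no gene in 40 cases (4.56%, 95% Wilson interval 3.36 to 6.14%), beside 21.4% of the other peaks and 10.4% of the 6374 peaks of 2 to 4 kb. A whole protein-coding gene fitted inside 90 of them (10.3%, beside 1.09%), and 178 (20.3%, beside 6.98%) touched several coding genes. Longer regions touch more genes by construction. Measures per base do not have that property: a median of 30.4% of a broad peak was exon, beside 14.2% in the other peaks and 19.9% at 2 to 4 kb, and a median of 90.7% was gene body, beside 64.6%. Summed over all bases, 22.2% of the broad peaks was coding sequence, beside 10.9% of the other peaks and 1.33% of the genome. The median count of gene starts in a 100 kb window centred on the peak was 4 for broad peaks and 2 for the others.

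By their place in genes the broad peaks fell into 3 groups, and the first was made of 490 peaks (55.8%) with an annotated TSS inside, beside 55.9% of the other peaks and 64.4% at 2 to 4 kb. Of these, 93.9% held a CpG island, the median exon share was 28.6% and median enrichment 7.72. Where the peak held the TSS of exactly 1 coding gene (332 peaks), it reached a median of 1493.5 bp upstream and 3177.5 bp downstream. It extended further into the gene than away from it in 72.9% (67.9 to 77.4%), beside 83.2% of the other peaks, while the median part of the length that lay downstream was 68.5%, beside 60.8%. The comparison thus went opposite ways by these measures.

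In the second group, 348 broad peaks (the gene bodies) overlapped a gene without any TSS. Their median exon share was 35.7%, beside 22.7% in the other peaks of the same kind, and coding sequence made up a median of 26.8%, beside 15.8%. An island was found in 56.0% and 66.7% lay wholly within 1 gene. Most of such a peak was thus not exon. Where a coding gene lay underneath, the median exon share was 36.1%, beside 23.9% in the other peaks and 33.3% at 2 to 4 kb. In the 331 with a coding gene underneath, the centre lay at a median of 79.4% of the way along the gene, and 279 (84.3%, 80.0 to 87.8%) were in the downstream part past the midpoint, beside 68.2% of the other peaks and 74.8% at 2 to 4 kb. The last part of the gene, from 80% of its length on, held 161 of them (48.6%), beside 35.9% of the other peaks. A TSS-free peak of this length has its centre at least 2 kb from a TSS by construction, and the part of that in the shift was not tested.

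The third group, the 40 broad peaks over no gene, had a lower median enrichment of 5.62, and 10 of them were centred on repeats. The longest spanned 8150 bp at chr17:27288801-27296950, was listed under Mir7214 and had an enrichment of 3.04. Fam92b was the listed gene of one of 7950 bp at chr8:120184001-120191950 with an enrichment of 8.43, and both genes were named only after their values were seen.

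The distance to the TSS depended on the peaks used for comparison. Within 5 kb of a TSS by the authors' distance lay 539 broad peaks (61.4%, 58.1 to 64.6%), the same share as in the other peaks (61.4%) but below that at 2 to 4 kb (70.7%). The share was 66.1% at 4 to 5 kb, 59.7% at 5 to 6 kb, 55.0% at 6 to 8 kb and 43.9% at 8 kb or more. Each longer class thus had a lower share. With centres on repeats left out of both sets, which was chosen after seeing the data, the share was 63.8% in broad peaks and 74.4% in the others. Within 1 kb the broad peaks were also lower, at 28.5% beside 53.4%, and within 10 kb higher, at 77.0% beside 67.7%. A long peak over a promoter has a centre that lies further from the TSS by construction.

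CpG islands lay in most broad peaks, and often several in a row. At least 1 island was found in 679 (77.3%, 74.4 to 80.0%), beside 72.6% of the other peaks and 80.7% at 2 to 4 kb, and 389 (44.3%) held several, beside 8.79% and 16.8% at 2 to 4 kb. Islands nevertheless made up a smaller part of each broad peak, a median of 22.8% beside 45.2%. In the central 2 kb of every peak the direction turned, with an island in 60.7% of broad peaks and 72.7% of the others, and it turned also with centres on repeats left out, at 78.5% and 81.8%. GC content was a median of 57.8% in broad peaks beside 55.4%, and the genome had 41.7%. The ratio of observed to expected CpG was lower, 0.415 beside 0.544, so that broad peaks combined high GC with fewer CpG per base. The most islands were found in the Otx1 peak, with 10.

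Inside the group the sequence changed with length. Islands made up a median of 34.4% of peaks of 4 to 5 kb, 19.0% at 5 to 6 kb, 10.9% at 6 to 8 kb and 11.0% at 8 kb or more, while the median coding share went from 16.2% through 18.9% and 24.6% to 26.9%. Coding share was higher in each longer class, and island share was lower up to 6 to 8 kb and about level from there. A whole coding gene was held by 5.47% of the shortest class and 28.1% of the longest, and median enrichment stayed between 7.23 and 7.78 across the 4 classes.

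**Figure D3:**
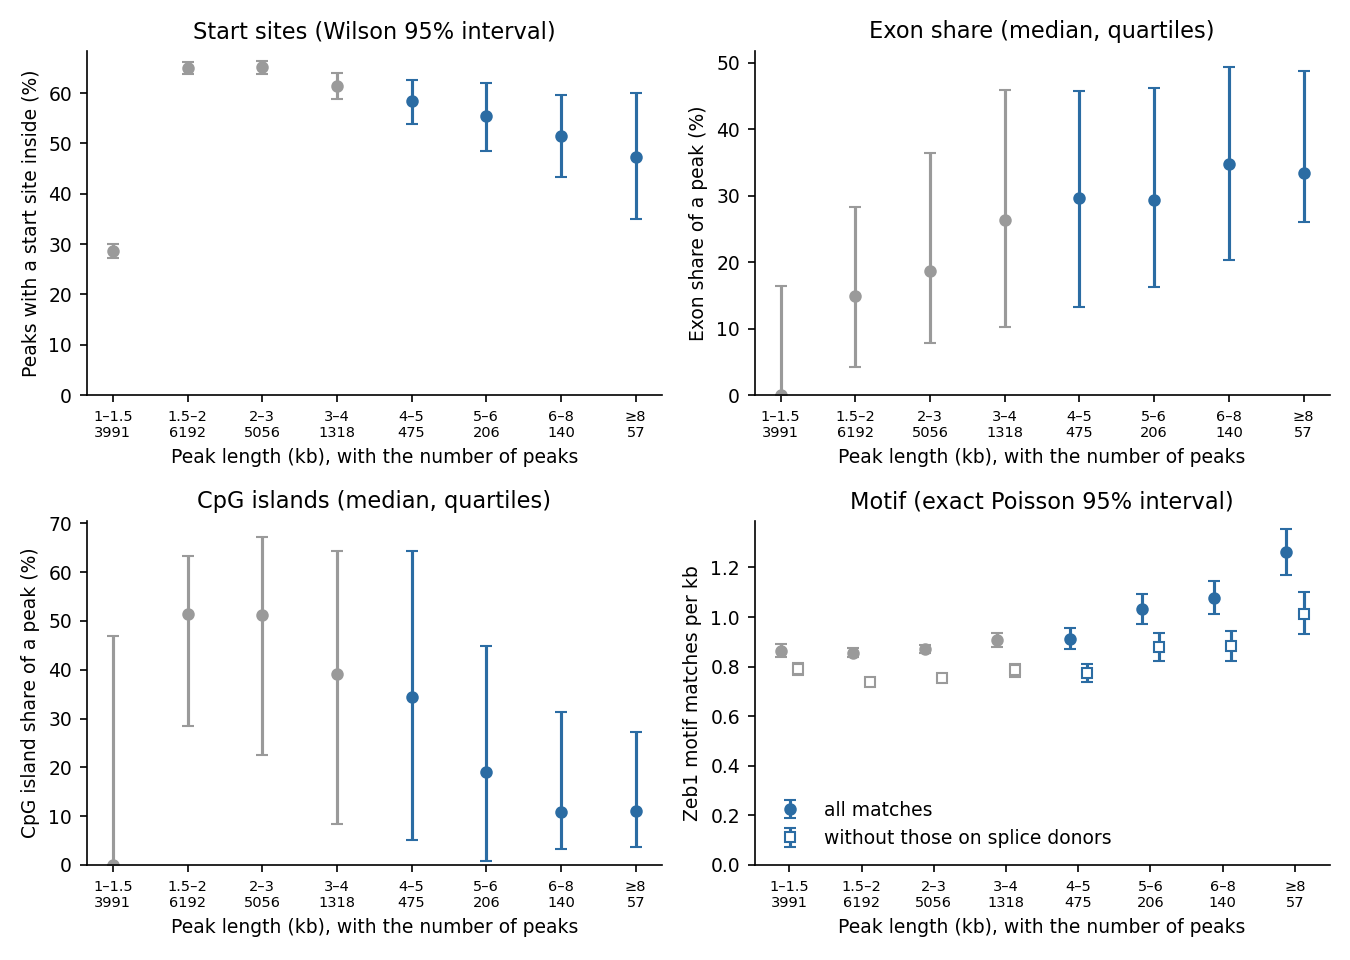
Share of peaks with a TSS inside and motif matches per kb (95% intervals), and exon and CpG island shares of a peak (medians and quartiles), by class of peak length in kb, with broad peaks in blue. In the longest class 47.4% hold a TSS and there are 1.26 matches per kb.

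The Zeb1 motif was found at least once in 97.0% of broad peaks, beside 75.7% of the other peaks, a difference that length alone enlarges. Per kb of sequence there were 1.02 matches (95% exact Poisson interval 0.988 to 1.05), beside 0.870 in the other peaks and 0.881 at 2 to 4 kb. In the central 1 kb of every peak the values were 0.958 and 0.881, and the core CACCTG alone gave 1.35 and 1.17 per kb. The broad peaks were higher by each of these counts. Density was higher in each longer class, from 0.913 at 4 to 5 kb through 1.03 and 1.08 to 1.26 at 8 kb or more. By place, broad peaks had 1.21 matches per kb over gene bodies, beside 1.07 in other peaks of the same place, and 0.895 where a TSS lay inside, beside 0.764. Over no gene the direction turned, with 0.775 (0.658 to 0.906) beside 0.965.

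Splice donors accounted for part of the matches, as in the Zbtb7a, Itpr3 and Cilp2 sequences. Of 4804 matches in broad peaks, 791 (16.5%, 15.4 to 17.5%) lay on an annotated splice donor, beside 12.7% of 28020 in the other peaks. A given donor was a match at a like rate in both sets, 18.4% of the 4304 donors in broad peaks and 18.6% of the 19182 in the others. The higher share in broad peaks thus went with more donors. Without donor matches the densities were 0.849 per kb (0.823 to 0.875) and 0.759, so that the direction was kept. With all matches counted, donors included, the density in exons was 0.964 per kb, beside 0.750, and outside exons 1.04, beside 0.904. A match on a donor was found in 428 broad peaks (48.7%), beside 18.9% of the other peaks, and a longer peak holds more donors by construction.

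Chr. 8 held 131 broad peaks, 14.9% of them, beside 7.59% of all peaks. Of its 1323 peaks 9.90% (8.41 to 11.6%) were broad, followed by Chr. 17 with 7.77%, Chr. 11 with 7.22% (101 peaks) and Chr. 10 with 7.17%. Chr. X had 5 broad peaks of 275 (1.82%) and Chr. 3 1.97%. Across 20 chromosomes without Chr. Y, this share ranked with coding genes per Mb (Spearman 0.72) and not with median input reads per kb (-0.19). Chr. 8 stood apart from that order, since its 7.84 coding genes per Mb were below the 13.6 of Chr. 7 and the 13.0 of Chr. 11. Its peaks had a median of 8.95 input reads per kb, beside 8.00 elsewhere, and its broad peaks a median enrichment of 6.14, beside 7.54. These values were not particular to Chr. 8. Chr. 6 had 10.3 input reads per kb and a median enrichment of 6.18 in its broad peaks, with 3.95% of its peaks broad. The part of input depth in the number of broad peaks on Chr. 8 was not tested.

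**Figure D4:**
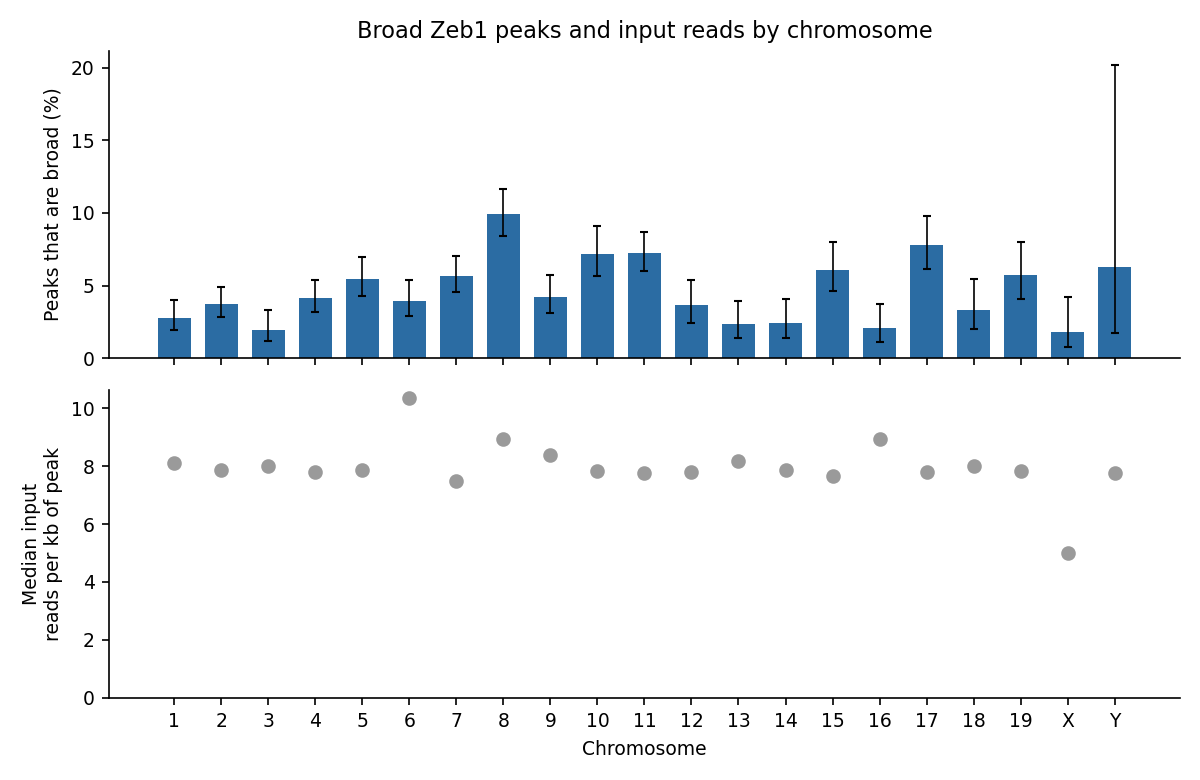
Percent of the peaks of each chromosome that are broad, with 95% Wilson intervals (bars), and median input reads per kb of all its peaks (points). Chr. 8 is highest at 9.90%, and Chr. X is lowest at 1.82%.

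Broad peaks lay close to other peaks. The median gap to the next peak was 4200 bp, beside 28150 bp for the others, and 194 broad peaks (22.1%, beside 6.25%) had a neighbor within 1 kb. Runs of broad peaks with gaps of at most 10 kb numbered 88 and held 197 of them (22.4%), and 18 runs had 3 or more. Over Plec, 4 broad peaks filled 32650 bp of the 39900 bp from chr15:76170651-76210550. The gene itself is 60405 bp long. A run of 4 on Chr. 10 lay over Zfr2, Matk, Mrpl54, Apba3 and Tjp3. By the gene underneath, Gse1 had 6 broad peaks and Nfix, a transcription factor gene of the nuclear factor I family, had 5, both on Chr. 8. Bahcc1 had 4, and Kmt2d, a histone methyltransferase gene, Hspg2, which encodes the matrix protein perlecan, Zfpm1, a Gata cofactor gene, and Zfp423, a zinc finger gene, had 3 each. Other than Plec, Kmt2d and Zfp423, the genes of these runs and of repeated peaks were chosen after their values were seen. Several broad peaks in the same gene were found for 69 of the 754 genes underneath.

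The genes of the lists were counted by the gene under a peak, over all genes that any peak overlapped. For all annotated genes 1034 of 12469 (8.29%) lay under a broad peak, and the median of the longest peak per gene was 2000 bp. By count, homeobox genes outside the Hox clusters had the most of the lists, 44 of 123 (35.8%, median longest peak 3400 bp), while the small lists of DNA methylation genes (4 of 10) and of Gata and Runx genes (3 of 8) had higher shares. Their longest were at Otx1, a gene of forebrain development (10250 bp, enrichment 6.94), Isl2 of motor neurons (7050 bp, 10.1) and Six5 (6650 bp, 8.01). Of the Hox cluster genes 9 of 36 were under a broad peak, among them Hoxb5 (7050 bp, enrichment 6.69) and a peak of 6450 bp at Hoxa3, Hoxa5 and Hoxa6. By the authors' listed gene the Hox count was 5 of 31 (16.1%). The expression of these genes was not measured in the libraries used here. The lists were not matched for gene length or density, and the part of these was not tested.

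Other lineage regulators gave smaller counts. Forkhead genes had 7 of 38, with Foxf1 of lateral mesoderm at 7350 bp (enrichment 8.57) and Foxn4 at 5600 bp (9.34), and lineage factors of the bHLH family 6 of 33, with Lyl1 (8900 bp, 6.03), Hes7 of the segmentation clock (6650 bp, 4.85) and Hand1 of the heart (6100 bp, 8.63). T-box genes had 3 of 13, led by Tbx2 (5450 bp, 6.50), and Gata and Runx genes 3 of 8, with Runx3 (6650 bp, 5.77) and Gata2 of blood stem cells (5600 bp, 8.33). Sox genes had 2 of 17, Sox9 of cartilage (5200 bp, 7.41) and Sox4 (4200 bp, 6.74), and Pax genes 1 of 7, the B-cell factor gene Pax5 (4700 bp, 7.11). Most of these lists rested on few genes. More of the Lyl1 peak lay over Nfix than over Lyl1.

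Signaling genes under broad peaks included ligands, receptors and inhibitors. The Wnt pathway had 13 of 54, with Apc2, the signal transducer gene Dvl2 (6000 bp, enrichment 6.26) and the ligand gene Wnt11 (5350 bp, 9.79). Notch and Hedgehog genes had 9 of 31, with Jag2, Lfng, which encodes a glycosyltransferase of Notch (7850 bp, 8.73), and the receptor gene Notch4 (6400 bp, 6.63). Several of these proteins act in somite formation or cell fate choice. BMP and TGF-beta genes had 9 of 44, with the BMP antagonist gene Nog (5800 bp, 9.13), the ligand gene Gdf1 (5500 bp, 7.86) and the activin receptor gene Acvr2b (5350 bp, 6.25). FGF and ERK feedback genes had 6 of 46, with the ERK inhibitor gene Spred3 (8400 bp, 6.97), Fgf11 (6100 bp, 7.64) and the receptor gene Fgfr4 (5550 bp, 3.38). More of the Spred3 peak lay over Ggn than over Spred3, and more of the Gdf1 peak over Upf1 than over Gdf1.

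Of the 5 genes that the study selected from its expression and peak data, 1 had a broad peak. Wnt7b had a peak of 4300 bp at chr15:85579801-85584100, with 77.2 treatment reads over 19.2 input reads and an enrichment of 8.12, and its centre was within 5 kb of the TSS. The longest peaks at Wnt3 (3800 bp), Tbx4 (3750 bp), Dll1 (3650 bp) and Mesp2 (1700 bp) stayed under the limit. The list was chosen on these samples, so its count is not independent of them.

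Pluripotency genes had 5 of 24, with Tbx3 (5200 bp, enrichment 7.82), Myc (4800 bp, 4.87) and Klf4 (4600 bp, 11.5). Epithelial and EMT genes had 7 of 38, with the laminin gene Lama5 (7950 bp, 8.90) and the polarity genes Llgl2 (7300 bp, 14.6) and Llgl1 (6050 bp, 7.50). Genes of cell polarity are known targets of Zeb1 in epithelial cells. Polycomb and Trithorax genes had 5 of 36, with the histone methyltransferase gene Kmt2d (9800 bp, 12.7) and the demethylase gene Kdm6b (8750 bp, 10.5). Corepressor genes of Zeb1 had 5 of 26, among them Rcor2 (6050 bp, 6.30) and the deacetylase gene Hdac5 (5150 bp, 8.03). By the authors' listed gene, corepressor genes had 2 of 23 (8.70%), beside 6.62% of all annotated genes so listed. DNA methylation genes had 4 of 10, with Tet3, which oxidizes methylcytosine (7000 bp, 6.31), and Cxxc5 (6300 bp, 7.97). The counts in several of these lists were small.

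Cytosolic ribosomal protein genes had 3 of 61 (4.92%), among them Rplp0 (8650 bp, enrichment 5.74) and Rpl18 (5900 bp, 9.89), and the peak listed under Rplp0 lay mostly over Pxn. Zinc finger genes of the Zfp series had 13 of 196 (6.63%), led by Zfp628 (9500 bp, 11.0), Zfp423 (6300 bp, 9.23) and Zfp469 (6300 bp, 8.01). No difference from the 8.29% of all annotated genes was tested for either list. Protocadherin cluster genes had 0 of 44 and nitric oxide synthase genes 0 of 1, and replication-dependent histone genes, counted by the authors' listed gene, had 0 of 24.

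**Figure D5:**
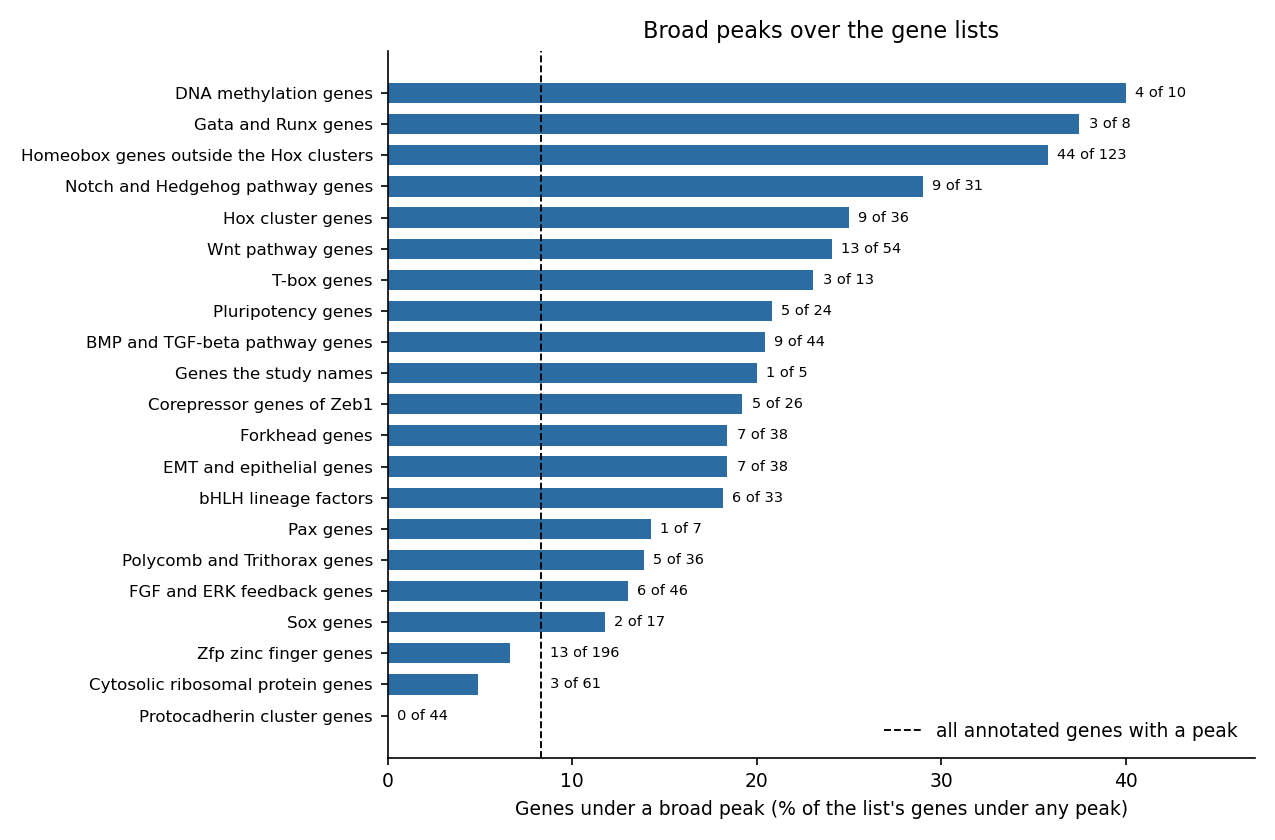
Percent of the genes of each list that lie under a broad peak, over the genes of the list under any peak, with counts beside the bars. The dashed line is the 8.29% of all annotated genes, and homeobox genes outside the Hox clusters reach 35.8%.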

How the data were processed

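Zeb1 ChIP-seq was made in mES-D3 cells with 3 Zeb1 libraries and 1 input library. Per the processing notes, the submitters used FastQC 0.11.2, STAR 2.4.2a, Picard 1.136, HOMER 4.7 and DESeq on the build mm10 (GRCm38). In the deposited list, the signal of a peak is a mean number of treatment or control reads as the authors averaged it, not divided by length. Enrichment in the deposited list is a ratio of treatment to input after the authors scaled both by mapped reads. The authors averaged it as they did the reads, so it cannot be recomputed from the mean reads of a peak. The p-value in the deposited list is 0 for all 17435 peaks and was not used. The authors joined overlapping peaks found in at least 2 of the 3 Zeb1 libraries into 1 region, recounted its reads and averaged the values, so lengths are those of joined regions. A small divisor, up to 33, that brought the read values to whole numbers was found for each peak. Its meaning is not given, so a read value may not be the total over its span.

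Peaks with end minus start plus 1 of at least 4000 bp were called broad, and this rule and the gene lists were chosen with earlier results of these data known. Named genes were those of the 10 longest peaks, the 5 broad peaks with the highest enrichment and the 5 with the most treatment reads, the 3 longest broad peaks of each gene list, the 5 genes the study names, and the peak with the highest enrichment on either side of the length limit. Not every gene that the rule takes is named. RefSeq genes and sequence of GRCm38 (mm10) gave TSSs, exons, splice donors, CpG islands (at least 200 bp, GC of 50%, observed to expected CpG of 0.6) and matches of [CT]N[CT]ACCTG on both strands. The work was done in Python 3.11.15 with NumPy 2.4.6, SciPy 1.17.1, pandas 2.3.3, pysam 0.24.0 and matplotlib 3.10.9, and the functions were tested on simulated data. Shares have 95% Wilson intervals and densities exact Poisson intervals, which cover counting error only. No tests were made, since the members were chosen by a readout and the list has no value per library. The alternatives tried were other length limits, an enrichment limit, merged peaks, other TSS distances and island definitions, central windows, the motif core, and centres outside repeats.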

Additional observations from a re-analysis of the deposited data

How the results depend on the processing

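With a limit of 3500 bp there were 1340 broad peaks and with 5000 bp 403. At 5000 bp the share within 5 kb of a TSS was 55.8%, matches per kb 1.10 and matches outside splice donors 0.909. With enrichment of at least 5 in all peaks, 81.5% held a CpG island, median enrichment was 7.72, as that limit itself dictates, and median GC was 58.0%. Within 1 kb of a TSS lay 28.5%, within 10 kb 77.0%, and 55.8% held a reference TSS (other peaks 53.4%, 67.7% and 55.9%). An island lay in 60.7% of the central 2 kb windows, and a strict island of at least 500 bp in 53.6% of peaks. Matches per kb were 0.958 in the central 1 kb and 1.35 for the core. Each count of windows or distances differs by its definition, and the cause of the other shifts was not tested. With enrichment of at least 5 there were 768 broad peaks, with peaks closer than 1 kb merged 1172, and with centres outside repeats 825. The median exon share of 30.4% and the share of 14.9% on Chr. 8 moved within their counting intervals under each alternative run on them, and the motif density was above that of the other peaks under all of them. Centres outside repeats, and each alternative for exon share, matches outside donors, GC and Chr. 8, were chosen after seeing the data.

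Leaving out a library was not possible because the list has no values per library. No paired analysis was possible because the libraries share 1 input and are given as a mean. The settings of the authors' peak calling, which set the peak lengths, were not varied.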

Other observations

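A divisor that brought the read values to whole numbers was found for all 17435 peaks, and this count depends on the rounding allowed. The divisor was over 7 in 365 peaks, of which 264 were broad, 30.1% of the broad peaks. Its median was 7 in peaks of 4 to 5 kb and 13 at 8 kb or more. The listed gene was a microRNA for 62 broad peaks (7.06%), beside 2.62% of the other peaks.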
